A study of Mus musculus with 6 samples.

Results

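The genes described here are the nuclear genes for the respiratory chain and the ATP synthase in mouse 4T1 cells, compared between cells given LP-184 and cells given the solvent DMSO. They were chosen by symbol alone: every gene of the expression table whose symbol starts with Nduf, Sdha to Sdhd, Uqcr, Cox and a digit, or Atp5, apart from 4 pseudogenes with -ps in the symbol. The rule found 102 of 12656 genes. By the complex they belong to, 46 were placed in complex I, 8 in complex II, 8 in complex III, 22 in complex IV and 18 in complex V, the ATP synthase. Of the 102, 81 were subunits or factors bound to the finished complex, such as the inhibitor Atp5if1, and 21 were assembly factors, proteins that help to build a complex but are not part of it. Ndufa4 was placed in complex IV despite its name, since the protein is a subunit of cytochrome c oxidase.

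The respiratory chain sits in the inner mitochondrial membrane. Complex I takes electrons from NADH and complex II takes them from succinate, complex III passes them to cytochrome c, and complex IV hands them to oxygen, while complexes I, III and IV pump protons that drive the ATP synthase. Most subunits are encoded in the nucleus and a few in mitochondrial DNA, so the nuclear genes have to be expressed in step with each other and with the mitochondrial genome, and the transcription factor NRF1 is known to bind the promoters of many of them.

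4T1 is a transplantable mouse mammary carcinoma line, labelled here as triple-negative breast cancer (TNBC). The control group was 3 libraries from 4T1 cells given DMSO. The treated group was 3 libraries from 4T1 cells exposed for 48 h to LP-184, a chemotherapeutic that damages DNA. Both groups were unmodified cells of the same line. No dose is stated in the labels, and the time of 48 h is given only for the LP-184 samples. Polyadenylated RNA was sequenced, with 18864368 to 22471753 reads per library over the genes of the table. The labels do not say whether the 3 libraries of a group came from separate cultures, so the p-values rest on the spread among these libraries, which may be only technical. In bulk RNA, fewer cells of a type and less RNA per cell cannot be told apart. All 7 epithelial marker genes checked were present, with a summed level of 4740 to 4750 CPM (read counts scaled to library size) in DMSO and 3305 to 3331 CPM in LP-184, 4 of them higher and 3 lower with LP-184. Of 6 leukocyte markers 2 were in the table (Lyz2 and Csf1r), with a summed level of 3.10 to 4.47 CPM in DMSO and 30.2 to 37.0 CPM in LP-184; Lyz2 had 0 reads in all 3 LP-184 libraries. Of 5 fibroblast markers 1 was in the table (Pdgfra, 6.37 to 7.62 CPM in DMSO and 8.12 to 10.3 CPM in LP-184), and of 4 endothelial markers 0 were. The part of these shifts in the results below was not tested.

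LP-184 left the respiratory chain genes with small changes in both directions, and 3 of them changed by 2-fold or more. Of the 102 genes, 100 reached a log2 CPM of 0 in 3 libraries or more and were tested, with limma across all 11931 genes that met this minimum and Benjamini-Hochberg adjustment over all of them. At an adjusted p under 0.05, 74 of the 100 were called, 38 higher and 36 lower with LP-184, while 26 did not pass. This share lay near the background, since 78.3% of all genes tested were called, 38.3% higher and 40% lower. For 73 of the 100, no LP-184 library fell within the range of the DMSO libraries or the reverse, against 79.1% of all genes. The numbers differed from those of all genes in size: 3 of 100 were called with a change of 2-fold or more (Sdhaf3 and Ndufs4 lower, Cox18 higher). The share of all genes was 20.7%, but all genes have a larger median span. Falls of 2-fold or more were concentrated in long genes, as described further on. The part of length in this difference was not tested. The median absolute log2 fold change was 0.22 over the 100 genes and 0.47 over all genes tested, and 89 of the 100 changed by less than 1.5-fold, against 58.4% of all genes; no test of these differences between lists was made. The median signed log2 fold change was 0.0028, beside -0.0060 for all genes. The balance of directions depended on the scaling. With each library centred on its median, 50 were called higher and 25 lower, while 78.9% of all genes were called. With the trend of fold change on gene length subtracted, described further on, 96 of the genes were tested. Of these, 16 were called higher and 65 lower, while 74.2% of all genes were called.

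**Figure D1:**
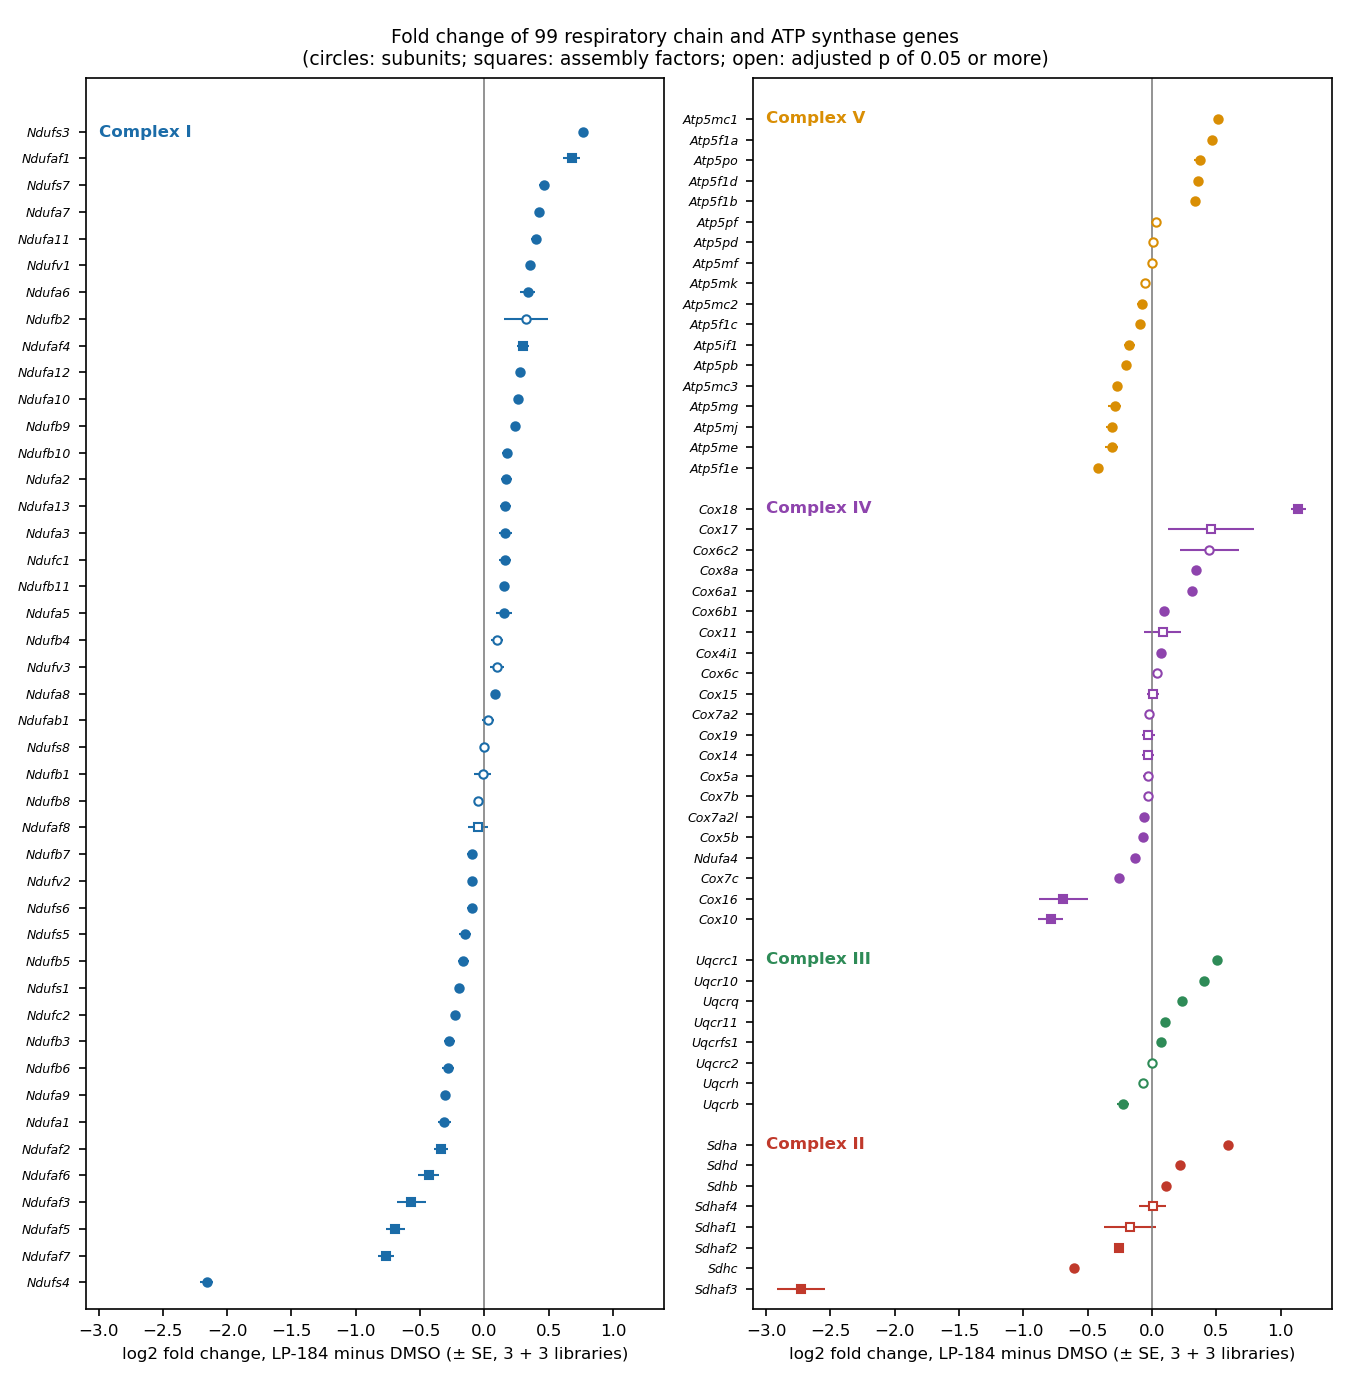
Log2 fold change (LP-184 minus DMSO, horizontal axis, with the standard error from the model over 3 + 3 libraries) of 99 of the 100 genes tested, one gene per line, grouped by complex and sorted within it. Most points lie within 0.5 of zero; Sdhaf3 at -2.73, Ndufs4 at -2.16 and Cox18 at 1.14 lie farthest out.

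Promoters were read for 82 of the 102 genes from the RefSeq table of assembly GRCm38.p6, in windows of 250 bases before to 50 bases after each annotated start. The NRF1 motif, searched as GCGCNTGCG on both strands, was in the windows of 26 of the 82 genes (31.7%), beside 16.2% of the genes tested that had a promoter in the table and 7.12% of all its genes. It was present in 14 of 30 called higher (46.7%), 9 of 30 called lower (30%) and 3 of 21 that did not pass (14.3%), so genes with it moved both ways. The YY1 motif AAGATGGCG was in 11% of the 82 and 3.92% of genes tested, and the ETS motif CCGGAAGT in 11% and 10%. The motif can overlap its own reverse complement, and genes with several starts have more sequence searched, 1.07 windows per respiratory chain gene and 1.28 per gene tested. The stretches below lie just outside the annotated gene, on its 5′ side, and are given 5′ to 3′ on the gene's strand. Of 6 called genes with the NRF1 motif in this stretch they show the 4 with the largest rise and the 1 that fell, and then the 2 genes that fell most. The Ndufs4 stretch has only 86 bases and ends 164 bases before the annotated start of its promoter, so the nearest bases are not shown. The others have 120 bases and end 0 to 40 bases before theirs. Capitals mark the NRF1 motif on either strand, merged where matches overlap. A match is a run of letters and was not tested as a binding site.
Sdha, chr13:74350281-74350400, - strand: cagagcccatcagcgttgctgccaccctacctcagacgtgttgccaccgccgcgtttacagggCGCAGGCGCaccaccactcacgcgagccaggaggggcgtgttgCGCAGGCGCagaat
Ndufa11, chr17:56717642-56717761, + strand: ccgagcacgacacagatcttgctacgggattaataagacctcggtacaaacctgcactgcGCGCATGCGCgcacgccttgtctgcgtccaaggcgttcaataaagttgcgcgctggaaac
Cox6a1, chr5:115348982-115349101, - strand: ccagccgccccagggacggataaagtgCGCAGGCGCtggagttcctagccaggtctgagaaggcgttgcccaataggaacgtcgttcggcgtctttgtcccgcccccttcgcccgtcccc
Ndufaf4, chr4:24897963-24898082, + strand: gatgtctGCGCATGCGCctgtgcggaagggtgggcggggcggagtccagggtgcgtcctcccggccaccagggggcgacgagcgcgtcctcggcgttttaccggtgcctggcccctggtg
Ndufs5, chr4:123718203-123718322, - strand: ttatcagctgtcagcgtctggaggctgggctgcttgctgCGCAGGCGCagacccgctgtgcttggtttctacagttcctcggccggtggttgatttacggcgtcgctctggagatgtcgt
Ndufs4, chr13:114388259-114388344, - strand: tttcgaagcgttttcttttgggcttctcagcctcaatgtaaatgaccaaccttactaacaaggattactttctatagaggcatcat
Sdhaf3, chr6:6955884-6956003, + strand: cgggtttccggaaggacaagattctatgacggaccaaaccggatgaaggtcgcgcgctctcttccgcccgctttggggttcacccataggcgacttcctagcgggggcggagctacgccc

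The stretch of Sdha holds 2 separate matches, those of Ndufa11 and Ndufaf4 each hold a pair that overlap on opposite strands, and those of Cox6a1 and Ndufs5 hold 1 each. Sdha, Ndufa11, Cox6a1 and Ndufaf4 rose with LP-184 and Ndufs5 fell, by 0.15 on the log2 scale (SE 0.05, adjusted p = 0.0033). The stretches shown for Ndufs4 and Sdhaf3 hold no match, which says only that these letters are not in these stretches.

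In complex I, the entry point for NADH, 20 of the 45 genes tested were called higher and 17 lower. That is 82.2% called, beside 78.3% of all genes, and the complex had a median of 0.08 on the log2 scale. Its 7 nuclear core subunits, which hold the flavin and the iron-sulfur clusters, gave 4 higher (Ndufs3 among them), 2 lower (Ndufs1 and Ndufv2) and 1 not called (Ndufs8), with a median of 0.35. The 30 accessory subunits tested gave 14 higher and 10 lower. The 8 assembly factors gave 2 higher (Ndufaf1 and Ndufaf4) and 5 lower (Ndufaf2, Ndufaf3, Ndufaf5, Ndufaf6 and Ndufaf7), with a median of -0.38. Ndufs3, a core subunit of the arm that reduces ubiquinone, measured 6.56, 6.48 and 6.60 log2 CPM in the 3 DMSO libraries and 7.32, 7.29 and 7.34 in the 3 LP-184 libraries. All LP-184 libraries lay above all DMSO libraries, a rise of 0.77 (SE 0.04, adjusted p = 5.2e-20), or 1.70-fold.

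The largest change in complex I was in Ndufs4, an accessory subunit that helps to attach the NADH-oxidizing module and whose loss in mice gives a model of Leigh syndrome. Ndufs4 (chr13:114287795-114388258, minus strand) measured 6.74, 6.71 and 6.74 log2 CPM in DMSO and 4.53, 4.53 and 4.65 in LP-184. The gap between the groups was far wider than the spread within either, with 106 ± 1.55 CPM (SD, n = 3) in DMSO and 23.7 ± 1.18 CPM (SD, n = 3) in LP-184, a fall of 4.47-fold (log2 fold change -2.16, SE 0.05, adjusted p = 2.2e-28). Among the subunits of all 5 complexes it was the only one called with a change of 2-fold or more. The log2 difference Ndufs3 minus Ndufs4 went from -0.18 ± 0.04 to 2.74 ± 0.05 (SD, n = 3 each), a change of 2.93 with no overlap of libraries. An exact two-sided permutation test of 3 against 3 gave p = 0.1 for this pair, the smallest p the design allows, and the pair was chosen after its values were seen.

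Among the complex I assembly factors, Ndufaf1, which works on an intermediate of the membrane arm, measured 4.73, 4.70 and 4.85 log2 CPM in DMSO and 5.53, 5.35 and 5.44 in LP-184. It rose by 0.68 (SE 0.06, adjusted p = 1.3e-11) without overlap. Ndufaf7, a methyltransferase, measured 5.41, 5.33 and 5.37 in DMSO and 4.59, 4.55 and 4.69 in LP-184, lower in every treated library. Its log2 fold change was -0.76 (SE 0.06, adjusted p = 6.2e-13). Ndufaf2, a late-acting factor related to the subunit Ndufa12, measured 5.70, 5.54 and 5.66 in DMSO and 5.24, 5.32 and 5.33 in LP-184, lower in every treated library (log2 fold change -0.34, SE 0.06, adjusted p = 1.8e-06). Its value carries 2 limits: 65.7% of its exon bases are also exon of B230220B15Rik on the other strand, and whether the counting used strand is not stated in the labels, and with the length trend subtracted its log2 fold change was 1.07. Ndufa12 itself rose by 0.28 (SE 0.03, adjusted p = 2.5e-09), and so did its pseudogene Ndufa12-ps (0.46, SE 0.07, adjusted p = 8.8e-07); how reads that match both copies were counted is not stated in the labels, so both values are uncertain.

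Complex II, which is also the succinate dehydrogenase of the tricarboxylic acid cycle, was split within its 4 subunits: Sdha, Sdhb and Sdhd rose and Sdhc fell. Over its 8 genes 3 were called higher and 3 lower (75% called, beside 78.3% of all genes). The median of the 8 was -0.08 and became -0.15 without DMSO replicate 1, -0.03 without DMSO replicate 3 and 0.0056 with median centring. Sdha, the flavoprotein that oxidizes succinate (chr13:74322254-74350280, minus strand), measured 7.76, 7.79 and 7.76 log2 CPM in DMSO and 8.38, 8.37 and 8.33 in LP-184. It rose by 0.59 (SE 0.03, adjusted p = 9.2e-21), or 1.5-fold, the largest rise in the complex. Sdhb, the iron-sulfur subunit bound to it, measured 7.90 in each DMSO library and 7.98, 8.06 and 8.0 in LP-184, a rise of 0.11 (SE 0.03, adjusted p = 0.00034) that kept the groups apart. The membrane anchors, which hold the ubiquinone site between them, went in opposite directions. Sdhc (chr1:171127165-171150603, minus strand) measured 7.57, 7.58 and 7.57 in DMSO and 6.96, 7.01 and 6.94 in LP-184. Every treated library was lower (log2 fold change -0.60, SE 0.03, adjusted p = 8.8e-19), a fall of 1.52-fold. Sdhd measured 8.36, 8.34 and 8.37 in DMSO and 8.60, 8.56 and 8.57 in LP-184, higher in every treated library by 0.22 (SE 0.02, adjusted p = 3.5e-10).

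The 2 subunits that moved farthest apart were Sdha and Sdhc. Sdha minus Sdhc was 0.20 ± 0.01 on the log2 scale in DMSO and 1.39 ± 0.03 in LP-184 (SD, n = 3 each), a change of 1.19, and Sdhd minus Sdhc changed by 0.82. Each pair gave p = 0.1 in the exact two-sided permutation test, the smallest possible, and both pairs were chosen after their values were seen. None of the 4 assembly factors of complex II was called higher and 2 were called lower (50% called). Of all genes tested, 38.3% were called higher and 40% lower. Sdhaf3, which helps to mature the iron-sulfur subunit Sdhb (chr6:6956004-7042979, plus strand), measured 3.17, 3.51 and 3.53 log2 CPM in DMSO and 0.82, 0.43 and 0.78 in LP-184. That is 10.6 ± 1.44 CPM against 1.51 ± 0.23 CPM (SD, n = 3 each), 6.63-fold lower (log2 fold change -2.73, SE 0.19, adjusted p = 2.1e-15) and the largest change of the 100 genes. Sdhaf2, which is needed to attach the flavin to Sdha, fell by 0.25 (SE 0.03, adjusted p = 3.1e-08). With the length trend subtracted, Sdhd had a log2 fold change of -0.17 and Sdhb of -0.15, while Sdha and Sdhc kept their directions.

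In complex III, 5 of 8 genes were called higher and 1 lower (75% called, beside 78.3% of all genes). The median was 0.08, with no change of 1.5-fold or more. Uqcrc1, a large core protein on the matrix side, measured 8.49, 8.46 and 8.5 log2 CPM in DMSO and 9.0, 8.97 and 9.01 in LP-184. It was higher in every treated library by 0.51 (SE 0.02, adjusted p = 1.6e-20), or 1.42-fold, whereas its partner core protein Uqcrc2 gave 286 ± 3.76 CPM in DMSO and 286 ± 4.5 CPM in LP-184 (SD, n = 3 each) and was not called (adjusted p = 0.97). Uqcr10, a small subunit next to cytochrome c1, measured 7.23, 7.19 and 7.25 in DMSO and 7.60, 7.67 and 7.63 in LP-184. This was a rise of 0.41 (SE 0.03, adjusted p = 3.8e-14) without overlap. Uqcrb, a small matrix-side subunit, measured 6.33, 6.21 and 6.29 in DMSO and 6.02, 6.16 and 5.96 in LP-184, and was the only one of the 8 called lower (log2 fold change -0.23, SE 0.05, adjusted p = 7.6e-05). Uqcrfs1, the Rieske iron-sulfur protein that takes electrons from ubiquinol, measured 7.98, 8.0 and 8.01 in DMSO and 8.05, 8.08 and 8.06 in LP-184. The groups stayed apart, but the difference was 0.07 (SE 0.03, adjusted p = 0.014). Its call was lost without LP-184 replicate 2 (0.06) and at a threshold of 0.01. Across all alternatives its adjusted p in the limma fits reached 0.25. With the length trend subtracted its log2 fold change was -0.27. Cytochrome c1 (Cyc1), a catalytic subunit of this complex, and cytochrome c (Cycs), which takes its electrons, fall outside the symbol rule and were both called higher, by 0.36 and 0.18.

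Complex IV had the lowest share of calls: 5 of 21 genes tested higher, 6 lower and 10 not passed (52.4% called, beside 78.3% of all genes), with a median of -0.02 that median centring turned to 0.07 and leaving out LP-184 replicate 1 to 0.0069. Its 13 subunits had a median absolute log2 fold change of 0.07, and all 13 stayed under 1.5-fold. Cox4i1, a regulatory subunit and the complex IV gene with the highest CPM, measured 9.64, 9.60 and 9.69 log2 CPM in DMSO and 9.68, 9.75 and 9.72 in LP-184. The libraries overlapped, although the difference of 0.07 passed the test (SE 0.02, adjusted p = 0.0033); it did not pass without the variance trend of the model and was -0.30 with the length trend subtracted. Cox8a, the small hydrophobic subunit, measured 8.63, 8.51 and 8.62 in DMSO and 8.91, 8.94 and 8.93 in LP-184, higher in every treated library by 0.34 (SE 0.03, adjusted p = 3.6e-14). Ndufa4, the subunit once assigned to complex I, measured 8.57, 8.51 and 8.54 in DMSO and 8.35, 8.44 and 8.43 in LP-184. It fell by 0.13 on the log2 scale (SE 0.03, adjusted p = 2.2e-05) without overlap, and did not pass with median centring (-0.04). Cox7a2, the widely expressed form of its subunit, measured 7.77, 7.68 and 7.74 in DMSO and 7.65, 7.74 and 7.74 in LP-184, overlapping and not called (log2 fold change -0.02, adjusted p = 0.53). Its relative Cox7a2l, which ties complex III to complex IV in supercomplexes, measured 8.30, 8.25 and 8.25 in DMSO and 8.19, 8.24 and 8.19 in LP-184. The difference of -0.06 (SE 0.03, adjusted p = 0.031) was lost without DMSO replicate 1 (-0.04), without LP-184 replicate 1 (-0.05) and without LP-184 replicate 3 (-0.05), and median centring turned it to 0.03.

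Of the 8 assembly factors of complex IV tested, 1 was called higher (Cox18) and 2 lower (Cox10 and Cox16), and 5 did not pass. That is 37.5% called, beside 78.3% of all genes. Cox18, which inserts part of the mitochondrially encoded subunit 2 into the membrane (chr5:90214724-90224001, minus strand), measured 4.83, 4.86 and 4.75 log2 CPM in DMSO and 5.99, 5.94 and 5.93 in LP-184. At 28.1 ± 1.10 CPM against 61.9 ± 1.47 CPM (SD, n = 3 each), it was 2.20-fold higher (log2 fold change 1.14, SE 0.06, adjusted p = 1.9e-19), the largest rise among the 100 genes. Cox10 and Cox15 act one after the other to make the haem of the enzyme. Cox10 (chr11:63962627-64079468, minus strand) measured 4.35, 4.39 and 4.22 in DMSO and 3.56, 3.61 and 3.42 in LP-184, lower in every treated library (log2 fold change -0.79, SE 0.10, adjusted p = 4e-09). Cox15 measured 6.18, 6.20 and 6.05 in DMSO and 6.15, 6.12 and 6.18 in LP-184. It overlapped between groups and was not called (log2 fold change 0.0057, SE 0.05, adjusted p = 0.91). Cox16, which takes part in the copper loading of subunit 2, measured 2.25, 2.68 and 2.15 in DMSO and 1.93, 1.5 and 1.58 in LP-184, a log2 fold change of -0.69 (SE 0.19, adjusted p = 0.0016) without overlap. Of its exon bases 56.8% are shared with Gm20498 on the same strand, so the reads of the 2 genes may not be separable. Cox17, the copper chaperone, stood close to the detection minimum, with -0.54, -0.02 and 0.16 in DMSO and -0.04, 0.62 and 0.38 in LP-184, overlapping and not called (adjusted p = 0.21). With the length trend subtracted, Cox10 (0.23) and Cox16 (0.42) changed sign. Cox20, a chaperone of subunit 2, was one of the 2 genes too low to test, at -1.95, -1.40 and -1.45 in DMSO and -0.32, -0.06 and -0.18 in LP-184; 91.1% of its exon bases overlap Hnrnpu on the other strand. The other was Ndufs6b, a single-exon copy of Ndufs6, with -0.92 to -0.65 in DMSO and -0.57 to 0.65 in LP-184.

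In the ATP synthase, 5 of 18 genes were called higher and 9 lower, a share of 77.8% beside 78.3% of all genes, with a median of -0.07 (0.02 with median centring). Of the 5 genes for the F1 catalytic head and its central stalk, 3 rose (Atp5f1a, Atp5f1b and Atp5f1d) and 2 fell (Atp5f1c and Atp5f1e). Of the 5 membrane domain subunits 0 rose and 3 fell (Atp5me, Atp5mg and Atp5mj), and of the 4 peripheral stalk genes 1 rose (Atp5po, by 0.37, SE 0.05, adjusted p = 6.1e-09) and 1 fell (Atp5pb). Atp5f1a, the alpha subunit, measured 10.10, 10.09 and 10.13 log2 CPM in DMSO and 10.55, 10.57 and 10.60 in LP-184, higher in every treated library by 0.47 (SE 0.02, adjusted p = 9.7e-23). Atp5f1b, the beta subunit that carries the catalytic sites and the gene with the highest CPM of the 102, measured 11.36, 11.34 and 11.38 in DMSO and 11.68, 11.69 and 11.72 in LP-184. It rose by 0.34 (SE 0.02, adjusted p = 1.3e-20), and with the length trend subtracted the value was -0.05. Atp5f1e, the small epsilon subunit of the central stalk, measured 7.89, 7.78 and 7.79 in DMSO and 7.39, 7.45 and 7.38 in LP-184, the largest fall in the complex (log2 fold change -0.42, SE 0.03, adjusted p = 2.9e-14). Subunits of the same F1 assembly thus went apart: Atp5f1a minus Atp5f1e changed from 2.28 ± 0.06 to 3.17 ± 0.05 (SD, n = 3 each), with an exact two-sided permutation p = 0.1, the smallest possible, for a pair chosen after its values were seen.

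Atp5me, a membrane subunit at the interface of synthase dimers, measured 6.39, 6.16 and 6.26 log2 CPM in DMSO and 5.90, 6.0 and 5.98 in LP-184, lower in every treated library (log2 fold change -0.31, SE 0.05, adjusted p = 6e-07). Atp5if1, the inhibitor that blocks ATP hydrolysis by the enzyme, measured 6.12, 6.04 and 6.08 in DMSO and 5.90, 5.87 and 5.94 in LP-184. It was lower without overlap (log2 fold change -0.18, SE 0.05, adjusted p = 0.00072), but did not pass with median centring (-0.09). The rotor ring of the enzyme is built from copies of 1 mature protein that 3 genes encode, and these genes did not move together. Atp5mc1 measured 7.27, 7.17 and 7.18 in DMSO and 7.73, 7.72 and 7.72 in LP-184, a rise of 0.52 (SE 0.03, adjusted p = 6.7e-17). Atp5mc3 measured 9.23, 9.17 and 9.23 in DMSO and 8.90, 9.01 and 8.93 in LP-184, a fall of 1.2-fold (log2 fold change -0.27, SE 0.02, adjusted p = 3.5e-12). Neither of these overlapped between groups. Atp5mc2 measured 7.12, 7.19 and 7.23 in DMSO and 7.08, 7.14 and 7.08 in LP-184, with overlap. Its log2 fold change of -0.08 (SE 0.03, adjusted p = 0.037) did not pass without DMSO replicate 2 (-0.07), DMSO replicate 3 (-0.05), LP-184 replicate 1 (-0.07) or LP-184 replicate 3 (-0.07), and median centring turned it to 0.0084. As a share of the summed CPM of the 3 genes, not corrected for transcript length, Atp5mc1 went from 16.7% ± 0.54 to 25.1% ± 0.75 and Atp5mc3 from 67.0% ± 0.35 to 58.6% ± 0.76 (SD, n = 3 each). The log2 difference Atp5mc1 minus Atp5mc3 rose by 0.78, with an exact two-sided permutation p = 0.1, the smallest possible, for a pair chosen after its values were seen.

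**Figure D2:**
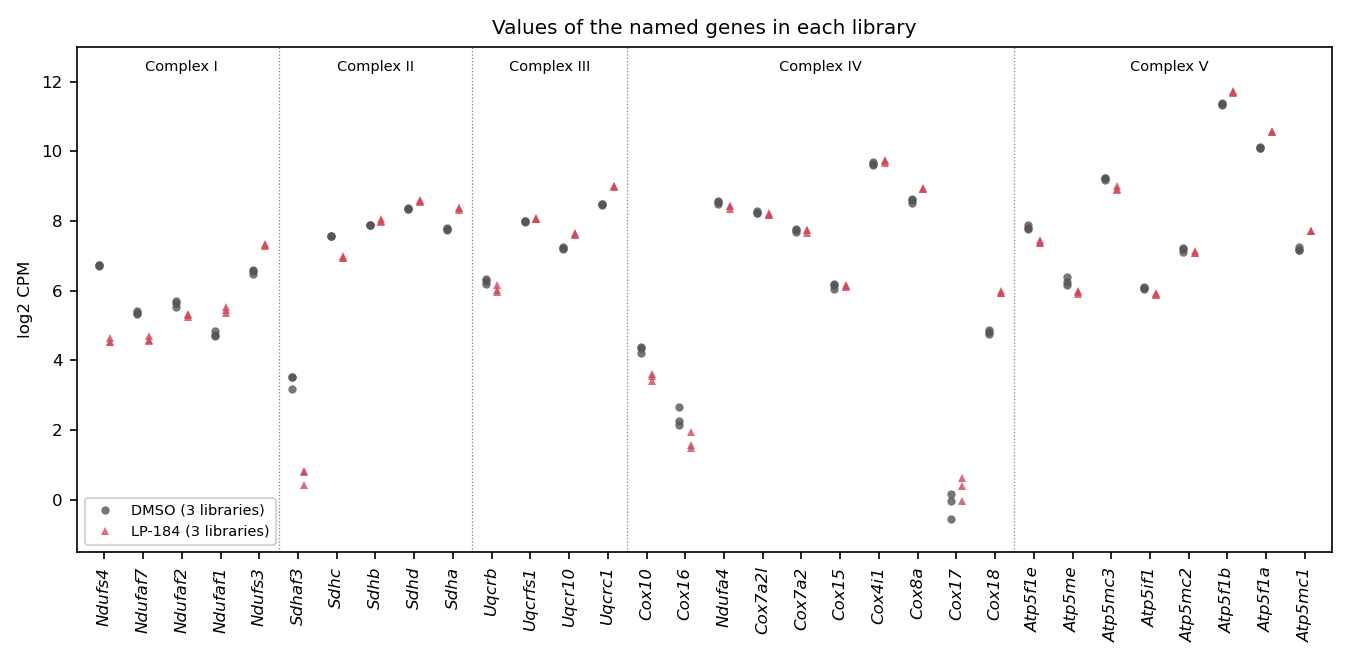
Log2 CPM (vertical axis) of the 32 genes named with values in every library, grouped by complex and sorted by fold change, with 3 DMSO libraries (circles) and 3 LP-184 libraries (triangles) each. Ndufs4 and Sdhaf3 drop well clear of their controls and Cox18 rises, while Cox7a2, Cox15, Cox4i1, Cox17 and Atp5mc2 overlap.

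Seen as totals on the authors' scaling, every complex was slightly higher with LP-184. The summed CPM of the 46 complex I genes was 4331 ± 92.0 in DMSO and 4609 ± 58.4 in LP-184 (SD, n = 3 each), a ratio of 1.06. For complex II it went from 1167 ± 6.56 to 1249 ± 16.4, a ratio of 1.07, and for complex III from 1716 ± 19.1 to 1956 ± 18.2, a ratio of 1.14. Complex IV gave 3964 ± 75.8 and 4152 ± 66.6, a ratio of 1.05, and the ATP synthase 7503 ± 108 and 8437 ± 118, a ratio of 1.12 (all SD, n = 3 each). The groups did not overlap in any complex, and over all 102 genes the sum rose from 18681 ± 287 to 20402 ± 249 CPM. A sum gives most weight to abundant genes and can differ in sign from the median: in the ATP synthase, where the sum was 1.12 times higher, 9 of 18 genes were called lower. The 80 subunits tested gave 35 higher and 27 lower (77.5% called) with a median of 0.03. The 20 assembly factors tested gave 3 higher and 9 lower (60% called) with a median of -0.11. Although a smaller share was called, their median absolute log2 fold change was larger, 0.38 beside 0.19 for the subunits. Of all genes tested, 78.3% were called. The difference between subunits and assembly factors was not tested.

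**Figure D3:**
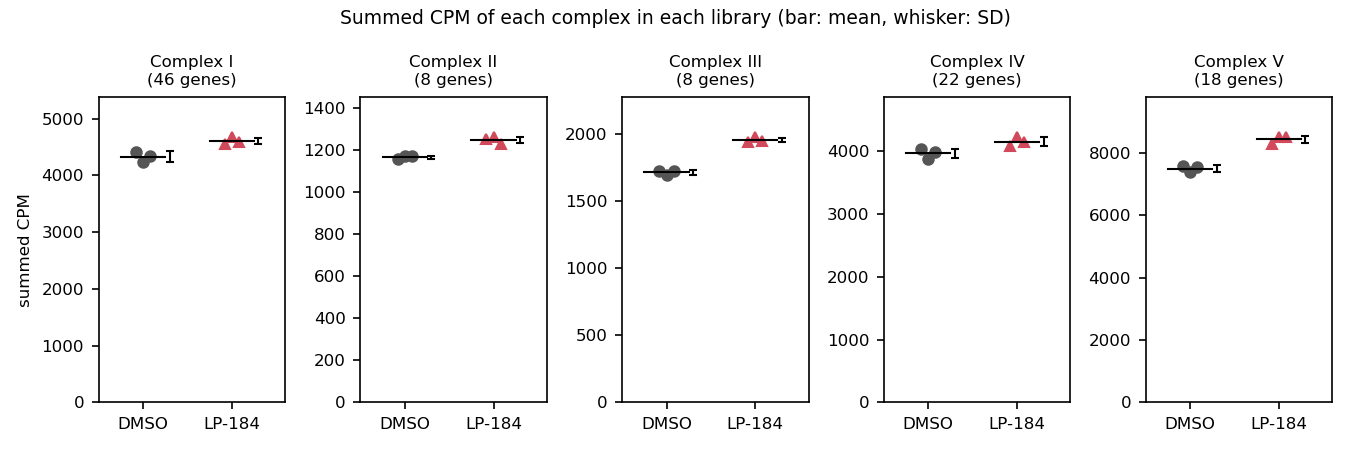
Summed CPM of the genes of each complex (vertical axis, starting at 0) in 3 DMSO and 3 LP-184 libraries (points), with the mean (bar) and SD (whisker). Every LP-184 library lies above every DMSO library in all 5 complexes, with ratios of means from 1.05 to 1.14.

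Respiratory chain genes are short, and gene length went with the response across the whole transcriptome. The annotated span, from the first to the last exon, had a median of 7.95 kb over 96 of the 100 genes and 21.7 kb over 11678 genes tested. Spearman's rho between span and log2 fold change was -0.22 over the 96 genes, -0.09 over the 76 of them that are not assembly factors and -0.49 over all genes; these are descriptions across genes, which share the same 6 libraries and are not independent. Below 10 kb the median log2 fold change was 0.07 over 62 respiratory chain genes and 0.23 over 3312 genes, and from 10 to 30 kb it was 0.0023 over 26 genes and 0.21 over 3734 genes. In these ranges 0 of the respiratory chain genes fell by 2-fold or more, beside 2.93% and 3.19% of all genes tested. At 80 kb or more stood 5 of the genes (Ndufaf2, Cox16, Cox10, Ndufs4 and Sdhaf3, with spans of 156, 126, 117, 100 and 87.0 kb), all called lower, with a median of -0.79; 2 of the 5 fell by 2-fold or more, beside 57.3% of the 1794 genes of that length. Sdhaf3 and Ndufs4, the largest falls, are thus among the 5 longest of these genes, and Ndufaf2, the longest, fell least of the 5. When the loess trend on log10 span was subtracted from the fold changes, 17 of 71 genes called before were called in the other direction, but Ndufs4 (-1.32), Sdhaf3 (-2.03) and Cox18 (0.79) stayed called in theirs. The GC content of transcripts also went with the fold change, with rho of 0.37 over 94 of the genes and 0.32 over 10648 genes. The part of length or GC content in any single gene's change was not tested.

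**Figure D4:**
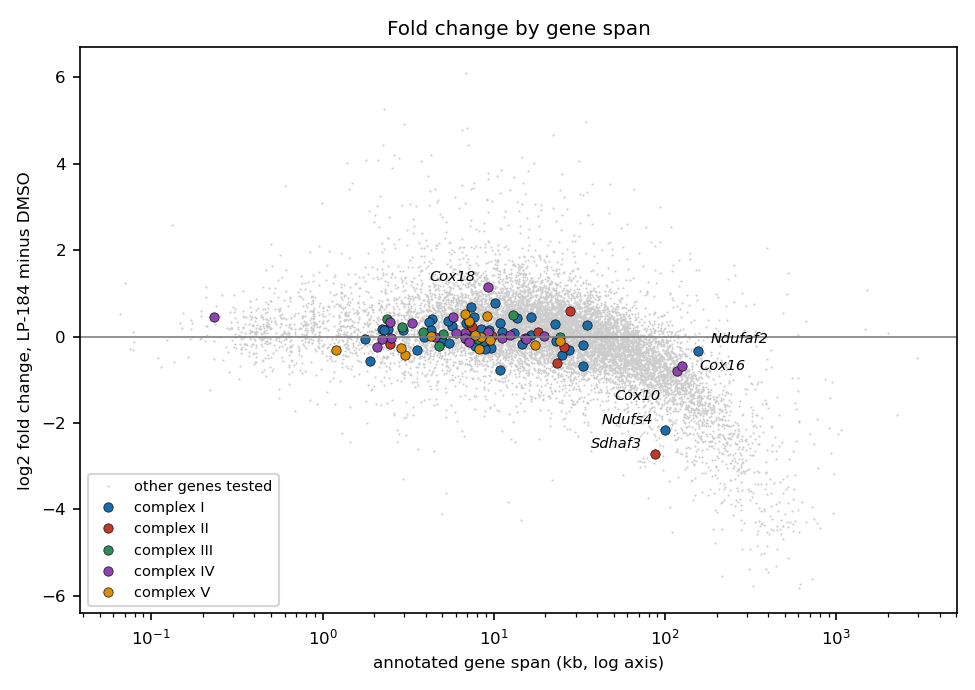
Log2 fold change (LP-184 minus DMSO, vertical axis) against annotated gene span (kb, log axis), with 96 respiratory chain and ATP synthase genes coloured by complex over the other genes tested in grey. Most of the coloured points lie below 30 kb near zero, and the 5 beyond 80 kb all lie below it.

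Genes that work with the respiratory chain but fall outside the symbol rule were read from lists chosen by known role. Of 39 assembly factors tested outside the rule, 15 were called higher and 18 lower (84.6% called, beside 78.3% of all genes). Their median was -0.06. Higd2a, a factor of complex IV and supercomplexes, rose by 1.19, and Surf1, a complex IV factor mutated in Leigh syndrome, by 0.97. The largest falls were in Nubpl, which delivers iron-sulfur clusters to complex I (log2 fold change -3.83), and Lyrm7, which hands the Rieske protein to complex III (-1.64). Of 23 genes that control respiratory chain transcription or the mitochondrial genome, 9 were called higher and 12 lower (91.3% called). Twnk, the mitochondrial DNA helicase, measured 5.50, 5.29 and 5.30 log2 CPM in DMSO and 7.19, 7.14 and 7.15 in LP-184, a rise of 1.79. Polrmt, the mitochondrial RNA polymerase, measured 4.19, 4.38 and 4.5 in DMSO and 6.23, 6.05 and 6.13 in LP-184, a rise of 1.78. Both stood clear of their controls in every library. The coactivator Ppargc1b (log2 fold change -1.64, SE 0.36) and the mitochondrial ribosomal RNA methyltransferase Tfb1m (-1.19) fell most. Ppargc1b had only 6, 18 and 24 reads in the LP-184 libraries, so the size of its fall is uncertain. NRF1 itself (Nrf1), whose motif is shown above and which is named here for that after its value was seen, measured 5.95, 6.05 and 6.03 in DMSO and 5.05, 5.07 and 5.18 in LP-184, lower in every treated library by a log2 fold change of -0.91. In the tricarboxylic acid cycle, which supplies NADH and succinate, 10 of 18 genes were called higher and 6 lower (88.9% called). Their median was 0.24. Pdhb of the pyruvate dehydrogenase complex rose by 0.75 and the malate dehydrogenase Mdh2 by 0.58, while the succinyl-CoA ligase subunits Suclg2 (-2.29) and Sucla2 (-0.35) fell. The respiratory chain genes of the mitochondrial genome were not in the expression table under the symbols searched (such as mt-Nd1), so they could not be tested.

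In the authors' deposited table, 39 of the 102 genes were higher and 36 lower at an adjusted p under 0.05. The share of all genes that passed there is not given here, while 78.3% of all genes tested here were called. The call of each of the 100 genes tested here was the same in that table, and log2 fold changes differed by at most 0.0749.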

How the data were processed

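RNA was measured in 3 DMSO and 3 LP-184 libraries of 4T1 cells. Per the file headers, the authors deposited log2 CPM for 12656 genes and, for their comparison, log2 fold changes with p-values. Control columns were matched to DMSO samples by number. Tools listed in the submitters' processing notes include edgeR, featureCounts, fastp, Subread 2.0 and STAR 2.7, with build mm10; for strand and for reads matching several gene copies, settings are not given in the sources used. Whole reads were recovered from 100% of values (tolerance 1e-06 reads); 0 reads corresponds to -3.34 log2 CPM, so a prior count was added that understates changes of low genes.

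Genes that reached a log2 CPM of 0 in 3 libraries or more were tested in R 4.3.3 by limma 3.58.1 (two-sided moderated test, variance trend on mean level, Benjamini-Hochberg adjustment over 11931 genes, threshold 0.05). The deposited log2 values were not rescaled. Spans and exon overlaps come from GENCODE release 21 on GRCm38 by symbol or synonym; 98 of the 102 genes matched. Named genes were, in each complex, the 2 largest rises and falls called without overlap, the gene with the highest CPM, and genes picked for known roles; 1 gene so picked is not reported here, and further genes stand where a count or comparison needed them. The members, lists and rules were chosen with earlier results of these data known. The procedure was tested on simulated data. Alternatives were median centring, quantile normalization, 2 pseudocounts, no filter and a stricter filter, a robust fit, a fit with no variance trend, voom on recovered reads, a threshold of 0.01, a replicate block, leaving out each library, and subtraction of the length trend (loess span 0.3). Summaries used Python 3.11.15 with pandas 2.3.3 and numpy 2.4.6.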

Additional observations from a re-analysis of the deposited data

How the results depend on the processing

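Across the 18 alternatives the number of respiratory chain genes called stayed between 64 and 81, beside 74, and the other pathway genes called between 66 and 73, beside 72. The share of all genes called ran from 72.3% to 83%, beside 78.3%. Leaving out 1 library gave 68 to 74 respiratory chain genes called. A replicate block also gave 74 (38 higher, 36 lower) and changed no call of the named genes. Deviations of same-numbered libraries from their group means gave r of -0.01, -0.018 and -0.006, and other pairs gave -0.023 to 0.034. Such values cannot show whether the numbers mark a pairing, which the labels do not state. Of 592 values of 33 genes the naming rule picked, 561 were counted as the same, 18 no longer passed and 1 newly passed. The remaining 12 changed sign with a call in the main fit, the alternative or both. A change of sign with a call in neither fit, as can occur for values near zero, was counted among the 561. The call of 19 genes stayed the same throughout. The cause of these changes was not tested.

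With median centring, which moved the median of all genes by 0.09, the complex medians were 0.17 (I), 0.0056 (II), 0.17 (III), 0.066 (IV) and 0.022 (V), and Cox7a2 (0.066), Cox7a2l (0.026) and Atp5mc2 (0.0084) changed sign. Quantile normalization gave 0.073 for complex II and 0.055 for complex III, and the stricter filter, which tested 97 of the genes, 0.0055 for complex II. Leaving out 1 library gave medians of 0.07 to 0.08 (I), -0.15 to -0.034 (II), 0.07 to 0.09 (III), -0.03 to 0.0069 (IV) and -0.10 to -0.04 (V). With the length trend subtracted, 16 of 96 genes tested were called higher and 65 lower, while 74.2% of all genes were called. The complex medians were then -0.22 (I), -0.35 (II), -0.17 (III), -0.30 (IV) and -0.36 (V). These values changed sign: Sdhd (-0.17), Sdhb (-0.15), Uqcrfs1 (-0.27), Cox4i1 (-0.30), Cox15 (-0.22), Atp5f1b (-0.045), Cox10 (0.23), Cox16 (0.42) and Ndufaf2 (1.07). Cox17, Cox20 and Ndufs6b, near or below 1 CPM, allow no firm statement at this depth.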
